A study of Mus musculus with 21 samples.

Results

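The 5 genes described here are the delta-cell and PP-cell genes Sst, Hhex, Ghsr, Etv1 and Ppy, picked by name out of 55536 gene identifiers in the count files. All 5 were found and passed the filter of at least 10 counts over the samples, which 27229 genes passed. The RNA came from pancreatic islets of CBA male mice in 3 groups of 7 samples: RD (regular diet), HFD (high-fat diet) and HFD-O304 (high-fat diet with 0.8 mg of O304 per g). O304 is a small molecule that activates the energy-sensing kinase AMPK in all its forms. The diets began at 10 weeks of age and islets were taken at 20 weeks. The study's results text gives 10 weeks on diet and its methods give 9. Each sample was RNA from 150 islets out of a pool from 5 mice, so that values describe pools and not single animals. HFD-O304 replicate 1 carries the diet tag HFD but the title HFD-O304, and was placed by its title.

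Islets hold insulin-secreting beta cells, glucagon-secreting alpha cells, somatostatin-secreting delta cells and PP cells, which secrete pancreatic polypeptide. Somatostatin, the product of Sst, acts on neighbouring alpha and beta cells through G protein-coupled receptors and restrains the release of glucagon and insulin. Delta cells also carry the ghrelin receptor, encoded by Ghsr, and depend on the homeobox factor Hhex. Etv1 encodes a transcription factor of the PEA3 branch of the ETS family, and Ppy encodes the precursor of pancreatic polypeptide, a peptide related to neuropeptide Y.

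In mouse genome build GRCm38, Sst (ENSMUSG00000004366) lies at chr16:23889573-23890958 on the minus strand with 2 exons, and Ppy (ENSMUSG00000017316) at chr11:102099930-102101319 on the minus strand with 4 exons. Ghsr (ENSMUSG00000051136) lies at chr3:27371351-27378010 with 3 exons, Hhex (ENSMUSG00000024986) at chr19:37434810-37440731 with 2 exons and Etv1 (ENSMUSG00000004151) at chr12:38779380-38870484 with 17 exons, all on the plus strand. None overlapped another annotated gene. The 200 bases before the RefSeq start (GRCm38.p6) are shown for Sst and Ghsr, the members called in HFD vs RD islets, and for Ppy, the other hormone gene. They cover chr16:23890845-23891044 (minus strand), chr3:27371151-27371350 (plus strand) and chr11:102101320-102101519 (minus strand), with capitals marking a match, in either orientation, to the cAMP response element TGACGTCA or to TATAAA.
Sst: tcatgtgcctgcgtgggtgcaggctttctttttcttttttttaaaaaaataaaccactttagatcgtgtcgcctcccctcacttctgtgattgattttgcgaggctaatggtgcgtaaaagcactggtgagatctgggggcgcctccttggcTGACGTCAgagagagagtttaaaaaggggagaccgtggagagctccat
Ghsr: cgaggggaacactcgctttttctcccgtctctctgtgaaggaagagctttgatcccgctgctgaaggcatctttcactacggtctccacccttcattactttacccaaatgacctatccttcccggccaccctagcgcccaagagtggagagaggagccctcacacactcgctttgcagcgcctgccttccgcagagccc
Ppy: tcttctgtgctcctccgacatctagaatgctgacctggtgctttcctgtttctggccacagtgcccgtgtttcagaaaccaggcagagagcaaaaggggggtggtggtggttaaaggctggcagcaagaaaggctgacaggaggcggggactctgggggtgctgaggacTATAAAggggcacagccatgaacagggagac
The Sst window held TGACGTCA, a palindrome bound by CREB-family factors, starting at position -48 from the start, and the Ppy window held TATAAA at position -31. Part of the Sst window, with its TGACGTCA, lay inside the gene span given above, since the RefSeq start was further downstream. No letters of either motif matched in the Ghsr and Hhex windows, and of the RefSeq starts of Etv1 the first had no match and the second had TATAAA on the other strand at position -114. Among 32851 windows of 250 bases before a RefSeq start, 1.55% held TGACGTCA and 12.4% held TATAAA, so that the second match is common. The matches are descriptions of letters and were not tied to any change below.

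Levels spanned a wide range. Normalized counts, which are read pairs divided by a size factor per sample, were set per kb of exon to compare genes. Over the 21 samples the mean level per kb was 251195 for Ppy, 130250 for Sst, 245 for Etv1, 25.8 for Ghsr and 13.6 for Hhex. Ppy was above Sst in 20 of 21 samples and Ghsr above Hhex in 20 of 21, whereas Sst was above Etv1 and Etv1 above Ghsr in all 21. The ranges of the neighbours Ppy (133189 to 424599 per kb) and Sst (62246 to 214861) overlapped, as did those of Ghsr (10.2 to 40.4) and Hhex (8.41 to 21.8). Sst took 0.121 to 0.445% of the read pairs on genes and Ppy 0.170 to 0.594%. Hhex rested on 23 to 145 read pairs per sample, Ghsr on 41 to 207 and Etv1 on 1220 to 4864.

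Read pairs on genes ranged from 31746115 to 41559322 in RD, from 27618749 to 44041180 in HFD and from 13809266 to 48922569 in HFD-O304 samples. The 6 beta-cell markers together held 27.2 to 34.0% of the read pairs, and none of the 3 alpha-cell markers was at 0 in any group. Replicates 1 to 4 and 5 to 7 carry library numbers from different sets. HFD replicate 7 stood closer to RD islets than the other HFD samples for several members, so that results are also given without it. The 3 comparisons share samples, and their values are therefore set side by side and not counted as separate evidence.

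Sst, the delta-cell hormone gene, stood lowest in HFD islets. The RD samples ran from 83254 to 134318 normalized counts (median 94751), the HFD samples from 44880 to 101156 (median 63298) and the HFD-O304 samples from 79700 to 154915 (median 119792). Below every RD sample lay 6 of the 7 HFD samples, between 44880 and 68967, and HFD replicate 7 at 101156 lay within the RD range. The group means of RD, HFD and HFD-O304 were 100703 ± 17988, 63869 ± 19006 and 117158 ± 25844 (SD, n = 7). Sst was 1.58-fold lower in HFD than in RD islets (log2 fold change -0.66 ± 0.15 SE, edgeR adjusted p = 0.00646). In HFD-O304 it was 1.84-fold higher than in HFD islets (0.88 ± 0.15, edgeR adjusted p = 0.000109), and 5 of the 7 HFD-O304 samples lay above every HFD sample. HFD-O304 did not pass the test against RD (0.22 ± 0.15, 95% interval -0.08 to 0.52, edgeR adjusted p = 0.559). Since these are bulk samples, fewer cells of a type and less RNA per cell cannot be told apart.

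**Figure D1:**
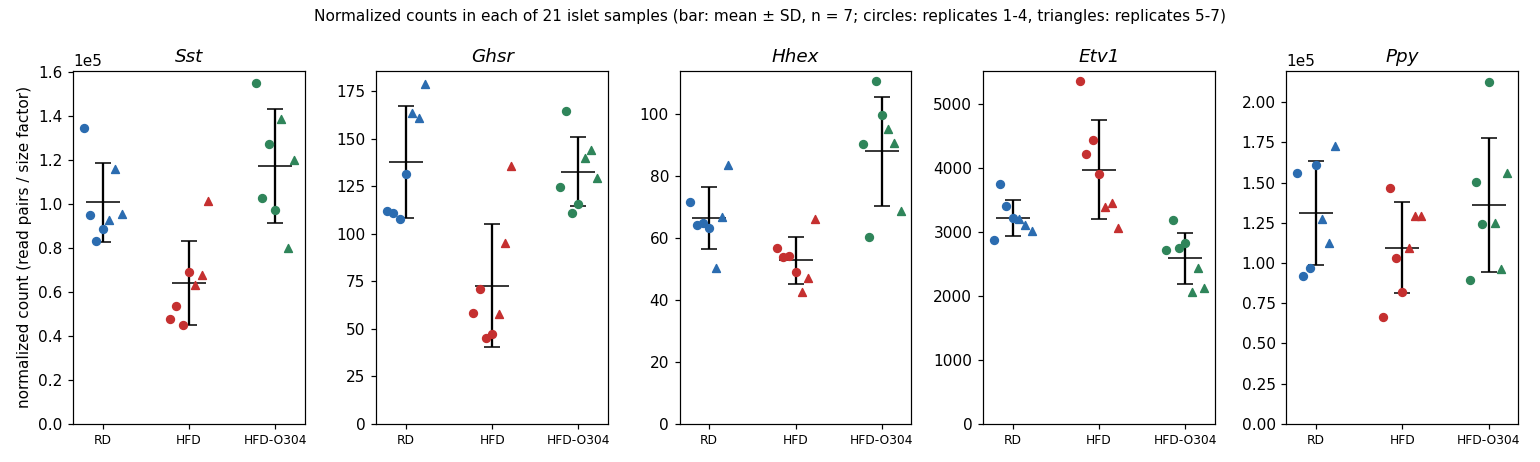
Normalized counts (y axis, from 0, read pairs divided by size factor) of Sst, Ghsr, Hhex, Etv1 and Ppy in each RD, HFD and HFD-O304 sample, with the mean ± SD of 7 samples, circles for replicates 1 to 4 and triangles for replicates 5 to 7. For Sst and Ghsr 6 of the 7 HFD samples lie below every RD sample, and the last HFD triangle is replicate 7.

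The call for Sst between HFD and RD islets was near the threshold of 0.01. It was lost when RD replicate 1, 5, 6 or 7 or HFD replicate 1, 2, 3, 4 or 5 was left out, with edgeR adjusted p between 0.0103 and 0.0203, and without HFD replicate 7 the log2 fold change was -0.81 (edgeR adjusted p = 0.000188). Within replicates 1 to 4 it was -0.90 (edgeR adjusted p = 0.00305) and within replicates 5 to 7 it was -0.39 (0.208). The change between HFD-O304 and HFD was 1.16 (0.000113) and 0.55 (0.0514) in the same sets. The difference between the sets was not called in either comparison (edgeR interaction adjusted p = 0.742 and 0.99988), with unadjusted p of 0.0696 and 0.0308.

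Ghsr encodes the receptor through which ghrelin acts on delta cells. Its normalized counts were 107.98 to 179 for RD (median 131), 45.2 to 136 for HFD (median 58.1) and 111.2 to 165 for HFD-O304 (median 130). As for Sst, 6 of 7 HFD samples were below every RD sample, and HFD replicate 7, at 136, lay inside the RD range. Means were 138 ± 29.4, 72.8 ± 32.4 and 133 ± 18.3 (SD, n = 7 per group). Ghsr was 1.89-fold lower in HFD than in RD islets (log2 fold change -0.92 ± 0.19, edgeR adjusted p = 0.00309) and 1.80-fold higher in HFD-O304 than in HFD islets (0.85 ± 0.19, edgeR adjusted p = 0.00195). Against RD, HFD-O304 gave -0.07 ± 0.19 (95% interval -0.43 to 0.30, edgeR adjusted p = 0.929). Without RD replicate 7 the first call was lost (edgeR adjusted p = 0.0106), and in the library sets the change from RD to HFD was -1.06 (0.00193) and -0.80 (0.0402). The same change without HFD replicate 7 was -1.15 (edgeR adjusted p = 3.39e-05). From HFD to HFD-O304 the change of Ghsr was 1.19 in replicates 1 to 4 (edgeR adjusted p = 0.000247) and 0.52 in replicates 5 to 7 (0.145), where the call was lost, and the difference between the sets was not called (edgeR interaction unadjusted p = 0.0315, adjusted p = 0.99988).

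Hhex, the factor that delta cells depend on, was the least counted member. It ran from 50.2 to 83.4 normalized counts in RD (median 64.6), 42.5 to 66.1 in HFD (median 53.8) and 60.1 to 110 in HFD-O304 (median 90.5). The highest values sat in HFD-O304, where 5 of 7 samples were above every RD sample and 6 of 7 above every HFD sample. Group means were 66.2 ± 9.99, 52.7 ± 7.62 and 87.8 ± 17.6 (SD, n = 7). Hhex was 1.70-fold higher in HFD-O304 than in HFD islets (log2 fold change 0.76 ± 0.14, edgeR adjusted p = 0.000257), whereas HFD vs RD (-0.33 ± 0.14, edgeR adjusted p = 0.184) and HFD-O304 vs RD (0.43 ± 0.14, edgeR adjusted p = 0.101) did not pass. Between HFD-O304 and HFD the change of Hhex was 0.78 in replicates 1 to 4 (edgeR adjusted p = 0.00892) and 0.71 in replicates 5 to 7 (0.0543), where it was not called. Its HFD vs RD change without HFD replicate 7 was -0.39 (edgeR adjusted p = 0.0946).

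Etv1 went the opposite way between HFD-O304 and HFD islets. Its normalized counts were 2868 to 3745 in RD (median 3203), 3068 to 5358 in HFD (median 3910) and 2059 to 3187 in HFD-O304 (median 2721). Above every RD sample were 4 of the 7 HFD samples, and 6 of 7 HFD-O304 samples were below every sample of both other groups. Means were 3223 ± 285, 3977 ± 777 and 2587 ± 405 (SD, n = 7). Etv1 was 1.53-fold lower in HFD-O304 than in HFD islets (log2 fold change -0.62 ± 0.10, edgeR adjusted p = 6.45e-05). HFD vs RD gave 0.30 ± 0.10 (edgeR adjusted p = 0.0733) and HFD-O304 vs RD gave -0.32 ± 0.10 (edgeR adjusted p = 0.0968), the last of which passed with the library set as a covariate (0.00695). The HFD vs RD change of Etv1 without HFD replicate 7 was 0.35 (edgeR adjusted p = 0.0202). It was 0.43 in replicates 1 to 4 (edgeR adjusted p = 0.0135) and 0.086 in replicates 5 to 7 (0.575). HFD-O304 vs RD gave -0.22 (0.403) and -0.49 (0.00145) in the same sets, and HFD-O304 vs HFD gave -0.65 (0.000185) and -0.58 (0.000103). The sets' difference was not called in HFD vs RD or HFD-O304 vs RD (edgeR interaction unadjusted p = 0.0188 and 0.0452, adjusted p = 0.704 and 0.854). Islet RNA does not show which cells the Etv1 transcripts came from.

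Ppy, the PP-cell hormone, passed no edgeR test. Values ran from 91918 to 173052 normalized counts in RD (median 127412), 66595 to 146523 in HFD (median 109371) and 89508 to 212299 in HFD-O304 (median 124696), and the groups overlapped widely. The means were 131152 ± 32493, 109453 ± 28242 and 136189 ± 41742 (SD, n = 7). HFD vs RD gave a log2 fold change of -0.26 ± 0.18 (95% interval -0.61 to 0.08, edgeR adjusted p = 0.444), HFD-O304 vs HFD gave 0.32 ± 0.18 (-0.03 to 0.67, edgeR adjusted p = 0.249) and HFD-O304 vs RD gave 0.05 ± 0.18 (-0.30 to 0.40, edgeR adjusted p = 0.942). The HFD vs RD change of Ppy without HFD replicate 7 was -0.31 (edgeR adjusted p = 0.349).

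**Figure D2:**
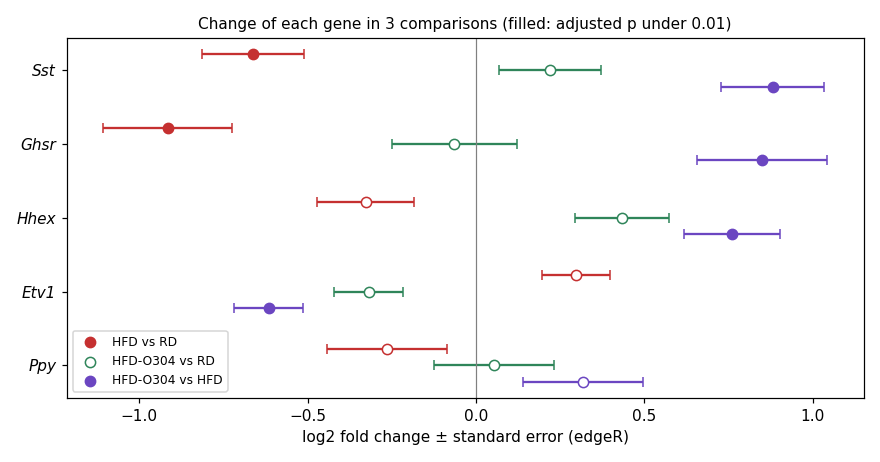
Log2 fold change with its standard error (x axis, edgeR) of each member in the comparisons HFD vs RD, HFD-O304 vs RD and HFD-O304 vs HFD, filled where the adjusted p is under 0.01. Sst and Ghsr are filled on the left for HFD vs RD, Sst, Ghsr and Hhex are filled on the right and Etv1 on the left for HFD-O304 vs HFD, and no point is filled for HFD-O304 vs RD.

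Counted together, 2 of the 5 members were called in HFD vs RD islets, both lower, where 3.54% of all genes tested were called and 1.54% were called lower. In HFD-O304 vs HFD islets 4 of 5 were called, 3 higher and 1 lower, where 11.9% of all genes were called, 5.08% higher and 6.79% lower. In HFD-O304 vs RD islets 0 of 5 were called by edgeR and by DESeq2, against 1.31% of all genes by edgeR. An unadjusted edgeR p under 0.05 was held by 2 members there, and by 3912 of the 27229 genes tested. In none of the comparisons did the groups separate fully for any member. By the exact two-sided Wilcoxon test, adjusted over 15 tests, 3, 1 and 4 members passed at 0.05 in HFD vs RD, HFD-O304 vs RD and HFD-O304 vs HFD, and at 0.01 only Hhex and Etv1 in HFD-O304 vs HFD did. Shares over all genes were not computed for full separation or for the Wilcoxon test, so these counts have no background beside them. Median log2 fold changes of the members were -0.33, 0.05 and 0.76 in HFD vs RD, HFD-O304 vs RD and HFD-O304 vs HFD, beside -0.0044, 0.0078 and 0.027 over all genes tested.

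The log2 ratio of 2 members within a sample does not depend on library scaling. Over 10 pairs in 3 comparisons, 0 of 30 differences passed an adjusted p of 0.01 by the exact two-sided permutation test, 9 passed 0.05 and 12 had an unadjusted p under 0.05. With 7 against 7 samples this test cannot give a p below 0.000583. A lone ratio, even fully separated, could therefore not pass 0.01 after adjustment over 30 tests. From HFD to HFD-O304 the ratio of Sst to Etv1 was higher by 1.51, that of Hhex to Etv1 by 1.33 and that of Ghsr to Etv1 by 1.57 (exact permutation, adjusted p = 0.0175 for each). Against RD, HFD islets differed by -0.97, -0.61 and -1.28 in the same ratios (exact permutation, adjusted p = 0.0219 for each). Ghsr to Ppy was lower in HFD by 0.73 log2 units (difference -0.73, exact permutation, adjusted p = 0.0369), Etv1 to Ppy differed by -0.92 in HFD-O304 vs HFD (0.0219), and Hhex to Etv1 by 0.72 in HFD-O304 vs RD (0.0219). Without HFD replicate 7, 6 ratios passed 0.01, all of them to Etv1 in the comparisons with HFD.

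**Figure D3:**
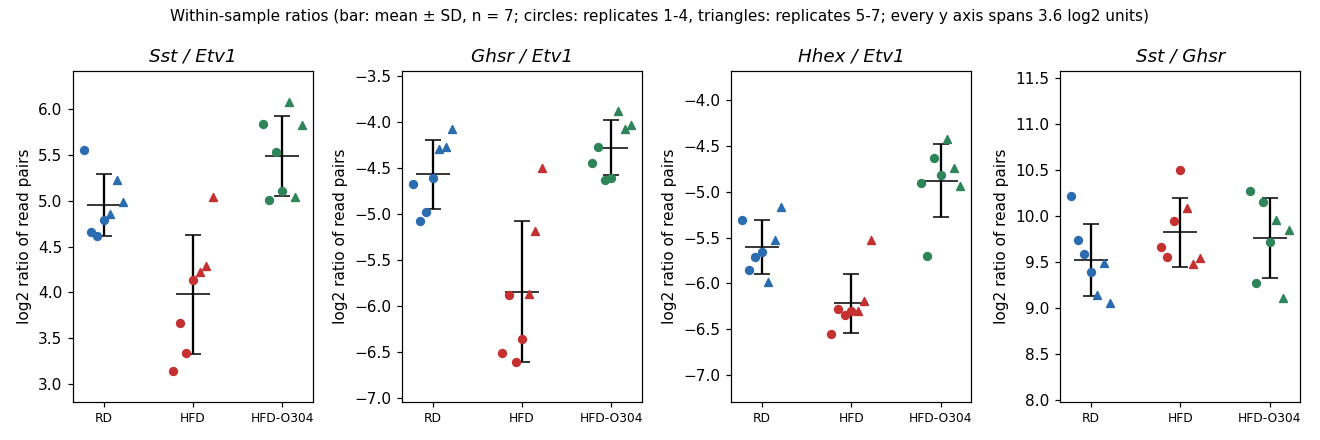
Within-sample log2 ratio of read pairs (y axis, each spanning the same number of log2 units) of Sst, Ghsr and Hhex to Etv1 and of Sst to Ghsr, with the mean ± SD of 7 samples per group, circles for replicates 1 to 4 and triangles for replicates 5 to 7. The ratios to Etv1 are lowest in HFD, with HFD replicate 7 apart from the others, while the ratio of Sst to Ghsr overlaps in all groups.

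No unequal change of Sst and Ghsr was detected. The log2 ratio of Sst to Ghsr in RD, HFD and HFD-O304 was 9.52 ± 0.39, 9.82 ± 0.38 and 9.76 ± 0.43 (SD, n = 7), and the HFD vs RD difference of 0.30 and the HFD-O304 vs HFD difference of -0.06 gave exact permutation p of 0.163 and 0.777 before adjustment. A p over the threshold does not show that the ratio was the same.

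Between groups, alpha-cell markers moved in the same directions as Sst and Ghsr. Of Gcg, Irx1 and Irx2, 2 of 3 were called lower in HFD than in RD and 3 of 3 higher in HFD-O304 than in HFD islets, with 0 of 3 called in HFD-O304 vs RD. Among all genes tested the same shares were 1.54%, 5.08% and 1.31%. The summed level of the 3 markers was 783738 to 1002977 normalized counts in RD, 289920 to 608923 in HFD and 818882 to 1104453 in HFD-O304, and HFD replicate 7 was the highest HFD sample. HFD replicate 1 was next at 560926, although its Sst of 47529 was near the lowest HFD value and its Ghsr of 58.1 was the HFD median. The markers and Sst thus did not go together in that sample. Their part in the results for Sst and Ghsr was not tested. Ratios to Gcg, the glucagon gene, and to the summed insulin genes Ins1 and Ins2 were added after the values had been seen, in 30 tests. Relative to Gcg, Sst differed by 0.36 between HFD and RD and by -0.35 between HFD-O304 and HFD (exact permutation, adjusted p = 0.10 and 0.12), and Ghsr by 0.05 and -0.29 (0.809 and 0.172). Relative to insulin transcripts, Sst differed by -0.79 and 1.12 (exact permutation, adjusted p = 0.00874 and 0.00291) and Ghsr by -1.09 and 1.18 (0.00971 and 0.00749). Etv1 relative to Gcg differed by 1.33 and -1.86 (exact permutation, adjusted p = 0.00291 for both), and Hhex relative to Gcg by 0.72 and -0.53 (0.00291 and 0.0192). Ppy relative to Gcg differed by 0.78 and -0.94 (exact permutation, adjusted p = 0.0385 and 0.0309). Hhex relative to insulin transcripts differed by -0.42 and 0.94 (0.0309 and 0.00291). In HFD-O304 vs RD only Etv1 relative to Gcg passed 0.01 (difference -0.53, exact permutation, adjusted p = 0.00291).

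**Figure D4:**
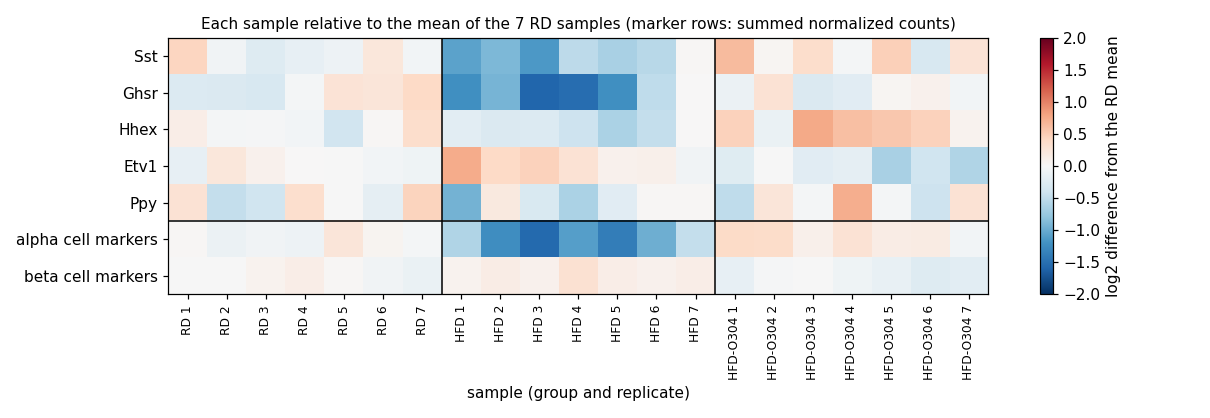
Log2 difference of each sample (x axis, group and replicate) from the mean of the 7 RD samples for the 5 members and for the summed normalized counts of the alpha-cell and beta-cell markers, in colour from blue (lower) to red (higher). Sst, Ghsr and the alpha-cell markers are blue in most HFD samples, Etv1 is red in HFD replicate 1, and for Sst, Ghsr and Hhex HFD replicate 7 is near white.

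Other cell types were checked in the same way. Of 6 beta-cell markers 1 was called higher and 1 lower in HFD vs RD, 0 in HFD-O304 vs RD, and 1 higher and 3 lower in HFD-O304 vs HFD. The 8 acinar markers gave no call in any comparison, although their summed level ran from 157 to 268561 normalized counts over the samples. In HFD-O304 vs HFD islets 3 of 5 duct markers, 1 of 5 macrophage markers and 1 of 5 nerve and glia markers were called higher, and 2 of 4 endothelial and 3 of 5 stromal markers lower. In HFD-O304 vs RD islets 1 duct marker and 1 nerve and glia marker were called higher and 1 endothelial marker lower, and in HFD vs RD islets none of these 6 lists held a call. The endothelial call was lost without HFD-O304 replicate 1 and also without HFD-O304 replicate 2, and without the latter 1 macrophage marker was called higher. Without HFD replicate 7 the duct, endothelial, stromal and macrophage lists each held 1 gene called higher in HFD vs RD. Their part in the results was not tested.

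Some other genes known from delta cells were called in the same direction as Sst. Of 8, 1 was called lower in HFD vs RD, 0 in HFD-O304 vs RD and 4 higher in HFD-O304 vs HFD, with medians of -0.23, 0.12 and 0.45. Over all genes tested, 1.54% were called lower in HFD vs RD and 5.08% higher in HFD-O304 vs HFD. Rbp4, which encodes the carrier of retinol, fell by 0.46 on the log2 scale in HFD (edgeR adjusted p = 0.00161) and rose by 0.78 in HFD-O304 over HFD (edgeR adjusted p = 4.80e-07). Ffar4, a receptor for long-chain fatty acids, rose by 0.72 in the latter comparison (edgeR adjusted p = 7.72e-06), Spock3, a secreted proteoglycan, by 0.66 (0.00438) and Frzb, a secreted Wnt antagonist and the most counted of the list, by 0.23 (0.00363). The other 4, Lepr, Nkx6-3, Casr and Bche, were not called in any comparison. In HFD-O304 vs HFD, Bche gave 0.79 (edgeR adjusted p = 0.0307), while Lepr (-0.32), Nkx6-3 (-0.12) and Casr (-0.06) lay on the side opposite to Sst. Of the 8, 5 were above 0 and 3 below in that comparison. Without HFD replicate 7, 3 of the 8 were called lower in HFD and 1 was called higher in HFD-O304 vs RD.

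Partners of somatostatin and ghrelin signalling gave fewer calls. Among the somatostatin relative Cort and the 5 somatostatin receptor genes only Sstr2 was called, at 1.05 higher on the log2 scale in HFD-O304 than in HFD islets (edgeR adjusted p = 0.000143), and Sstr3, the most counted, gave -0.07 (0.594). Of Ghrl, which encodes ghrelin, Mboat4, which encodes the enzyme that acylates it, and Mrap2, an accessory protein of the receptor, none was called in any comparison, and Ghrl gave -0.75 ± 0.43 between HFD and RD and 1.02 ± 0.42 between HFD-O304 and HFD (edgeR adjusted p = 0.335 and 0.0982). Ucn3, a beta-cell peptide that stimulates delta cells through the receptor encoded by Crhr2, was 0.52 higher in HFD-O304 than in HFD islets (edgeR adjusted p = 0.00137), while Crhr2 was not called. Without HFD replicate 7, 1 of these 2 genes was called lower in HFD vs RD.

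The peptide genes Npy and Pyy, of the neuropeptide Y family, passed tests that Ppy did not. Npy fell by 1.43 on the log2 scale in HFD vs RD (edgeR adjusted p = 4.82e-05), rose by 1.53 in HFD-O304 vs RD (5.38e-06) and was 2.96 higher in HFD-O304 than in HFD islets (6.06e-11), with means of 342, 127 and 988 normalized counts in RD, HFD and HFD-O304. Pyy, the most counted relative, was called in HFD-O304 vs HFD islets (0.89, edgeR adjusted p = 3.91e-05). The receptor gene Npy1r was not called, and Npy2r, Npy4r, Npy5r and Npy6r were below the filter. The differences between these genes and Ppy were not tested.

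Genes known from PP cells did not move in a single direction. Of 6, 1 was called higher and 2 lower in HFD vs RD, 2 lower in HFD-O304 vs RD, and 3 higher and 2 lower in HFD-O304 vs HFD. The shares of all genes called in either direction were 3.54%, 1.31% and 11.9%. Cartpt, which encodes the CART peptide precursor, was 1.49 higher in HFD than in RD and 2.80 log2 units lower in HFD-O304 than in HFD (difference -2.80, edgeR adjusted p = 0.000335 and 2.16e-08). Sertm1, a membrane protein, gave -0.80 and 0.78 (edgeR adjusted p = 0.000739 and 0.000215) and the homeobox factor Meis2 gave -0.31 and 0.28 (0.000599 and 0.000362). Abcc9, a subunit of potassium channels, gave -0.49 in HFD-O304 vs HFD (edgeR adjusted p = 4.91e-05) and -0.41 in HFD-O304 vs RD (0.00269), where Cartpt gave -1.31 (0.00451). Id4, named because it completes the count, was 0.65 higher in HFD-O304 than in HFD (edgeR adjusted p = 0.00215). The lower calls of HFD-O304 vs RD fell from 2 to 0 without HFD-O304 replicate 1 and to 1 without HFD-O304 replicate 2.

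The relatives of Etv1 in the PEA3 branch, Etv4 and Etv5, were both called lower in HFD-O304 than in HFD islets (log2 fold change -2.44 and -0.85, edgeR adjusted p = 2.85e-05 and 2.73e-06), as Etv1 was. In HFD vs RD islets they gave 1.27 and 0.36 (edgeR adjusted p = 0.0189 and 0.0404) and were not called. Etv4 was scarce, with means of 12.5, 31.1 and 5.45 normalized counts in RD, HFD and HFD-O304, against 1473, 1899 and 1047 for Etv5. Of 5 genes of prohormone processing, Pam, the peptide amidating enzyme, was called lower in HFD-O304 vs HFD (-0.71, edgeR adjusted p = 5.80e-06), and Pcsk2, the most counted, gave 0.0021 (0.990).

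**Figure D5:**
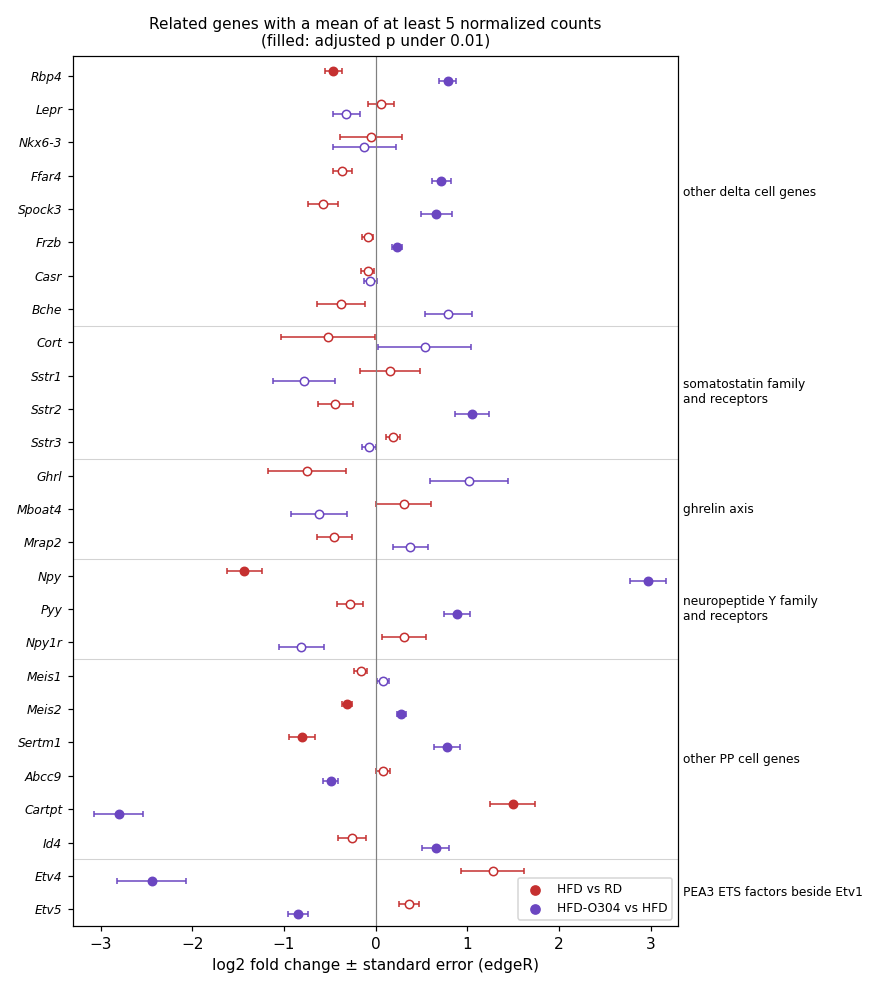
Log2 fold change with its standard error (x axis, edgeR) of genes of 6 related lists averaging 5 or more normalized counts, in HFD vs RD (red) and HFD-O304 vs HFD (purple) islets, filled where the adjusted p is under 0.01. Rbp4, Npy, Meis2 and Sertm1 are filled on opposite sides of 0 in the 2 comparisons, lower in HFD and higher in HFD-O304, and Cartpt the other way.

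No pair of members was shown to vary together between pools of islets. Deviations from the group means of log2(normalized count + 1) were correlated for 10 pairs over 21 samples, and 0 of 10 passed an adjusted p of 0.05 by permutation within groups. The strongest was Sst with Etv1, with Pearson's r = -0.59 (permutation p = 0.0145, adjusted p = 0.145) and Spearman's rho = -0.57 (permutation p = 0.0171, adjusted p = 0.171). Leaving out the 2 samples farthest from the median of Sst gave r = -0.58, and r was -0.67 over the 12 samples of replicates 1 to 4 and -0.91 over the 9 samples of replicates 5 to 7. Sst with Ghsr gave r = 0.39 (permutation p = 0.147, adjusted p = 0.321), which fell to 0.11 without the 2 farthest samples. Its sign differed between the library sets, at -0.18 in replicates 1 to 4 and 0.48 in replicates 5 to 7.

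The genes whose profile over the 21 samples was most like that of each member were found among 13216 genes averaging 50 or more normalized counts, by Pearson's r of log2(normalized count + 1), as a description that includes the differences between groups. For Sst they were Hist3h2ba (r = 0.931), Irx1 (0.914) and Gpr153 (0.905), and Irx1 is on the list of alpha-cell markers. For Ghsr they were Prox1 (0.951), Efnb3 (0.945) and Slc4a7 (0.944), and for Hhex Gtf2i (0.841), Tulp3 (0.838) and Zswim6 (0.830). For Etv1 they were Frk (0.960), Sdcbp (0.959) and Ergic2 (0.954), and for Ppy Tspan8 (0.815), 4930539E08Rik (0.786) and B2m (0.774).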

How the data were processed

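RNA-seq of islets was compared between RD, HFD and HFD-O304 mice, with 7 samples per group. The authors checked 50-nt paired-end reads with FastQC, aligned them to GRCm38 (Ensembl 96) with STAR and deposited the raw count of read pairs on each gene, not normalized. Pairs matching several places or genes are not in these counts. Of the STAR columns, the stranded count holding 28.8 to 36.3 times the other strand was used. Genes with a sum of at least 10 were tested with edgeR 4.0.16 (TMM, quasi-likelihood, all 3 groups in 1 fit, no covariate) in R 4.3.3, with Benjamini-Hochberg adjusted p under 0.01 as a call. Every adjusted p of a gene comes from that fit over 27229 genes unless another test, a smaller set of samples or a covariate is named. Those come from separate fits. DESeq2 1.42.0 gave the size factors of normalized counts and served as an alternative. Ratios used a pseudocount of 0.5 and exact two-sided permutation over 3432 splits, and correlations used 100000 permutations within groups. Gene coordinates came from GENCODE (GRCm38), which held all 55536 identifiers.

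The members and the gene lists were chosen with earlier results of these data known. Some items of the lists are not reported here. Named genes were the members, the called genes of each related list (at most 4, by adjusted p) with its most counted gene, and 3 genes most alike each member. Further genes of these lists were named after their values were seen, to complete a count. On simulated counts for HFD vs RD with 26628 genes, edgeR recovered 69 of 104 genes changed by 0.5 on the log2 scale and 90 of 96 changed by 1, with 2 false calls. Replicates are separate pools of islets, and no pair of samples agreed within sampling noise. Alternatives covered the test, threshold, normalization, strand, filter, groups fitted together, library set, replicate block and each sample left out. Python 3.11.15 (numpy 2.4.6, pandas 2.3.3, scipy 1.17.1, matplotlib 3.10.9) made ratios, tables and figures.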

Additional observations from a re-analysis of the deposited data

Results flagged for a closer look

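In HFD islets, Sst in replicate 7 was 101156 normalized counts, far from the other 6 HFD samples, which lay between 44880 and 68967. It was the only group of the 15 looked at (5 genes in 3 groups) with such a distant sample, and chance gives about 1 such group in 20. In the same sample the alpha-cell markers were the highest of the HFD group.

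In HFD-O304 replicate 1, 0.357% of the read pairs of Sst and 0.561% of those of Ppy lay on the strand opposite to the gene, a signal outside the counts used for the comparisons. The highest RD values were 0.0332% and 0.0200%. In the HFD-O304 group the highest values for other abundant islet genes were 0.232% for Ins1, 0.236% for Ins2 and 0.398% for Gcg. Without that sample Sst, Hhex, Ghsr and Etv1 stayed called in HFD-O304 vs HFD islets.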

How the results depend on the processing

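No called member changed direction under any alternative run. In HFD vs RD islets 963 genes were called, and 1758 with DESeq2, 2148 at an adjusted p of 0.05, 627 with only the 2 groups in the fit, 1577 with the replicate block, 1611 with the library set as a covariate, 563 in replicates 1 to 4, 307 in replicates 5 to 7 and 589 to 1594 with each sample left out in turn. Of the 5 members 2 were called there, but 1 with only the 2 groups, 0 in replicates 5 to 7 and 0 to 2 with samples left out. In HFD-O304 vs RD islets 356 genes were called, and 727 with DESeq2, 785 at 0.05, 543 with the replicate block, 543 with the library set, 85 in replicates 1 to 4, 228 in replicates 5 to 7 and 221 to 423 with samples left out. Of the members 0 were called, but 1 (Etv1) with the library set and 1 in replicates 5 to 7. In HFD-O304 vs HFD islets 3230 genes were called, and 5150 at 0.05, 2001 in replicates 1 to 4, 1456 in replicates 5 to 7 and 2643 to 3578 with samples left out, while members called went from 4 to 1 in replicates 5 to 7 and stayed at 4 with any sample left out. Ratios past 0.01 numbered 0 to 6 with samples left out, and within a library set the exact test could not go below p = 0.0286 or 0.1. The causes were not tested.

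The labels give the replicate numbers no shared origin, and the samples were not treated as paired. Deviations of same-numbered samples correlated by 0.199, 0.294 and 0.137 on average in HFD vs RD, HFD-O304 vs RD and HFD-O304 vs HFD, against -0.034, -0.048 and -0.019 for different numbers. Taking deviations from group means pulls the average over all pairs towards 0. The values for different numbers are therefore not an independent comparison. Over 0.1 were 4, 6 and 5 of 7 pairs, and 3, 2 and 2 of 7 samples correlated best with their own number. With the replicate block, 1577, 543 and 3763 genes and 2, 0 and 4 members were called. Of the counts of calls in the gene lists, 16 moved without HFD replicate 7, HFD-O304 replicate 1 or HFD-O304 replicate 2, alternatives chosen after seeing the data. Without HFD replicate 7 these included 1 PEA3 factor and 1 prohormone gene called higher in HFD vs RD, 2 neuropeptide Y family genes called higher in HFD-O304 vs RD, and 1 of that family lower in HFD-O304 vs HFD. Depth was lowest for Hhex and Ghsr, with 23 and 41 read pairs in their lowest samples.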
